A study of Mus musculus with 4 samples.

Results

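The 7 genes described here encode transcription factors that set the lineage or the effector state of lymphocytes, namely Tbx21, Eomes, Gata3, Foxp3, Bcl6, Zbtb16 and Ikzf2. They were given as a list of symbols and were found among the 27998 genes of the deposited gene table, each as 1 gene. Their levels were read in 5 kinds of mouse lung lymphocytes gated on other genes, which were CD4 T cells, CD8 T cells, gamma-delta-like T cells, natural killer (NK) cells and innate lymphoid cells. The study profiled dissociated whole lungs of wild-type C57BL/6 mice, labelled male, by droplet single-cell RNA sequencing after removal of dead cells. One library was made at each of 4 ages, 10 days (NB), 2 months (2 M), 10 months (10 M) and 18 months (18 M), with no treatment. Age was compared to follow lung cells through life, and with 1 library an age no test between ages was possible, so age, animal and library cannot be told apart.

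Lymphocyte identity is held by a small number of such factors. T-bet (Tbx21) and Eomesodermin (Eomes) are T-box factors of NK cells and cytotoxic T cells. GATA3 directs type 2 helper cells and group 2 innate lymphoid cells and is also needed in all developing T cells, and FOXP3 defines regulatory T cells. BCL6 directs follicular helper T cells and germinal centre B cells, PLZF (Zbtb16) gives T cells an innate-like programme, and Helios (Ikzf2) is an Ikaros family factor known in regulatory T cells and in several innate lymphocytes.

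The 4 libraries held 34037 barcodes, of which 28153 passed the limits on genes, unique molecular identifiers (UMIs) and mitochondrial share, and 5548 fell in the 5 gates. Library totals ran from 33087004 to 64863474 UMIs, the median cell held 3998.5 to 4308 UMIs, and any 2 libraries shared 13 to 18 cell barcodes. The CD4 gate held 471, 340, 314 and 633 cells in the libraries from the youngest to the oldest label, the order used throughout, and the CD8 gate 671, 420, 564 and 468. The NK gate held 140, 423, 533 and 128 cells, the innate lymphoid gate 55, 32, 45 and 184, and the gamma-delta-like gate 25, 15, 34 and 53. The library labelled 18 M stood apart. Xist, transcribed from the inactive X chromosome of female cells, had a UMI in 36.3% of its cells against at most 0.254% elsewhere, 44.1% had a Y-linked UMI and 4.37% had both. The imprinted growth genes H19, Igf2 and Dlk1, known for their high levels before birth, stood at 20.2, 8.57 and 5.25 CPM (UMIs per 1000000) over its cells against at most 0.0693, 1.82 and 0.277 elsewhere. The library is named by its label throughout. Free RNA also differed, since Scgb1a1, an airway secretory gene, had a UMI in 22.4%, 3.71%, 4.69% and 56.5% of B cells, and the part of these differences in the values below was not tested.

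The gates were checked on genes they did not use. In the NK gate Tyrobp, a signalling adaptor of NK receptors, had a UMI in 96.1% to 96.9% of cells, and Nkg7 in 97.9%, 96.0%, 95.9% and 85.2%. In the gamma-delta-like gate Il17a, the cytokine of IL-17-producing T cells, had a UMI in 60.0%, 80.0%, 85.3% and 75.5% of cells. The genes of the T cell receptor constant regions were not in the gene table, so these cells cannot be told from other IL-17-type T cells. In the innate lymphoid gate the T cell gene Cd3g had a UMI in 32.7%, 12.5%, 37.8% and 34.8% of cells and Cd28 in 56.4%, 28.1%, 33.3% and 26.6%. In the NK gate the Cd3g shares were 3.57%, 0.709%, 1.31% and 12.5%, and in B cells, as background, the Cd28 shares were 1.98%, 0.430%, 0.621% and 1.14%. A stricter set without a UMI of Cd3g, Cd5 or Cd28 held 18, 19, 20 and 81 cells.

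Levels are given as CPM, the UMIs of a gene per 1000000 UMIs of the summed cells of a gate, with exact 95% Poisson intervals in parentheses. All intervals, on levels, ratios and shares alike, cover counting error only. The assay counts molecules at their 3' end, so CPM were not divided by transcript length.

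On the GRCm38 build, Tbx21 (chr11:97098071-97115331, minus strand) and Eomes (chr9:118478212-118486132, plus strand) were highest in NK cells in every library, and both differed more between libraries in T cells than in NK cells. Gata3 (chr2:9857078-9890034, minus strand) was highest in innate lymphoid cells. With Zbtb16 they were the factors whose top gate stood clear of the next in its range over the libraries. The 250 bases that precede the RefSeq start of each of these 3 genes are shown because they are the proximal control regions of factors that marked a gate. They were read on the strand of the gene from the GRCm38.p6 table, which covers 5 of the 7 genes (Zbtb16 and Ikzf2 are named only). Capitals mark the letters of 4 searched motifs on either strand. The T-box motif was spelled GGTGTG. For Runx factors the letters were TGTGGT. The letters for GATA factors were AGATAA. Ets factors were searched as CCGGAA.
Tbx21, chr11:97115332-97115581: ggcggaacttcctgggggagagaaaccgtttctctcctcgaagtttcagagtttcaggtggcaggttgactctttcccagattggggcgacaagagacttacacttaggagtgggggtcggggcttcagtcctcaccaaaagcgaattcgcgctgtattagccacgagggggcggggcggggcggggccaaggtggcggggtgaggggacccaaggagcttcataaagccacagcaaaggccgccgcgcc
Eomes, chr9:118477939-118478188: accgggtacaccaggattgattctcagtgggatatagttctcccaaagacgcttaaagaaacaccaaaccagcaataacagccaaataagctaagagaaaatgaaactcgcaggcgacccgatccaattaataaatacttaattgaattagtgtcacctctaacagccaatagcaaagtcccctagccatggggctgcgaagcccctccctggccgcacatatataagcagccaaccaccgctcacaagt
Gata3, chr2:9878601-9878850: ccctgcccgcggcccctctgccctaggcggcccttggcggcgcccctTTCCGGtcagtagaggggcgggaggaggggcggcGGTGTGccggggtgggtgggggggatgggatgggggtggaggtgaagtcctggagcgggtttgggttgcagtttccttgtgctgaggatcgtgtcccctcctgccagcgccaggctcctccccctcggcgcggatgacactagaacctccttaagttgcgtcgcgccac
In windows of 300 bases, which add 50 bases after the start, GC content was 62.0% for Tbx21, 47.3% for Eomes and 67.3% for Gata3, against a median of 52.7% over 32851 promoters. Gata3 held 1 T-box match and 1 Ets match, and the Tbx21 and Eomes windows held none of the 4 motifs. Of all promoters of that length, 19% held the T-box letters, 16.8% the Runx, 11.2% the GATA and 14.9% the Ets letters, and a match is a description of letters, not of binding. The Gata3 window lies within the longer span that GENCODE gives the gene.

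Tbx21 stood at 114 (89.6 to 143), 126 (110 to 143), 109 (95.8 to 124) and 70.5 (52.5 to 92.7) CPM in the NK cells of the 4 libraries. In CD8 T cells it stood at 31.1 (26.3 to 36.5), 3.48 (1.74 to 6.22), 25.7 (21.0 to 31.2) and 4.16 (2.27 to 6.98) CPM. CD4 T cells followed the same shape at 27.5 (21.3 to 34.8), 2.42 (0.787 to 5.66), 18.1 (12.6 to 25.2) and 1.23 (0.336 to 3.15) CPM. NK values of the first 3 libraries overlapped and that of 18 M was lower, with an interval that did not meet those of 2 M and 10 M. The T cell values fell into a high pair (NB and 10 M) and a low pair (2 M and 18 M) with intervals that did not meet. The innate lymphoid gate held 44.0, 46.8, 31.1 and 3.34 CPM on 4 to 10 UMIs, and the gamma-delta-like gate 2, 0, 5 and 2 UMIs in all. Only NK stood clear of the next gate, and the ranges of the other 4 gates over the libraries overlapped.

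Eomes was the more abundant T-box gene, at 447 (397 to 501), 834 (793 to 877), 750.9 (715 to 789) and 510.1 (459 to 565) CPM in NK cells, where 64.3%, 87.2%, 82.0% and 74.2% of cells had a UMI. In CD8 T cells it stood at 171 (159 to 183), 31.9 (26.0 to 38.8), 123 (112 to 134) and 63.9 (55.6 to 73.0) CPM. CD8 cells were thus highest in NB and lowest in 2 M, and NK cells were higher in 2 M and 10 M than in NB and 18 M. CD4 T cells held 44.4, 17.9, 20.2 and 1.85 CPM, and the 37 UMIs of library 2 M came from 5 cells with 17 in 1 of them. No Eomes UMI was found in any gamma-delta-like cell, where 3 UMIs would be 23.1, 29.4, 16.6 and 10.1 CPM. The innate lymphoid gate held 13, 28, 2 and 23 UMIs, or 57.1, 187, 10.4 and 19.2 CPM, in 2, 4, 2 and 9 cells.

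Over the 4 libraries, Tbx21 was higher in NK than in CD8 cells by a mean log2 ratio of 3.31 ± 1.60 (SD, n = 4), and Eomes by 2.92 ± 1.37, each with the same sign in 4 of 4 libraries. The exact sign-flip test over 4 libraries cannot give a p below 1 in 8, so no p is given for these contrasts. The NK over CD8 ratio of Tbx21 was 3.66 (2.74 to 4.86), 36.2 (19.9 to 73.5), 4.25 (3.36 to 5.41) and 16.9 (9.24 to 33.2), and it was widest in the libraries with least Tbx21 in CD8 cells. Without library 2 M the means were 2.68 and 2.33. Among NK cells, Tbx21 had a UMI in 40.0%, 39.6%, 35.5% and 31.6% of cells with an Eomes UMI and in 32.0%, 35.2%, 28.1% and 39.4% of those without one, with intervals that overlapped in each library.

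**Figure D1:**
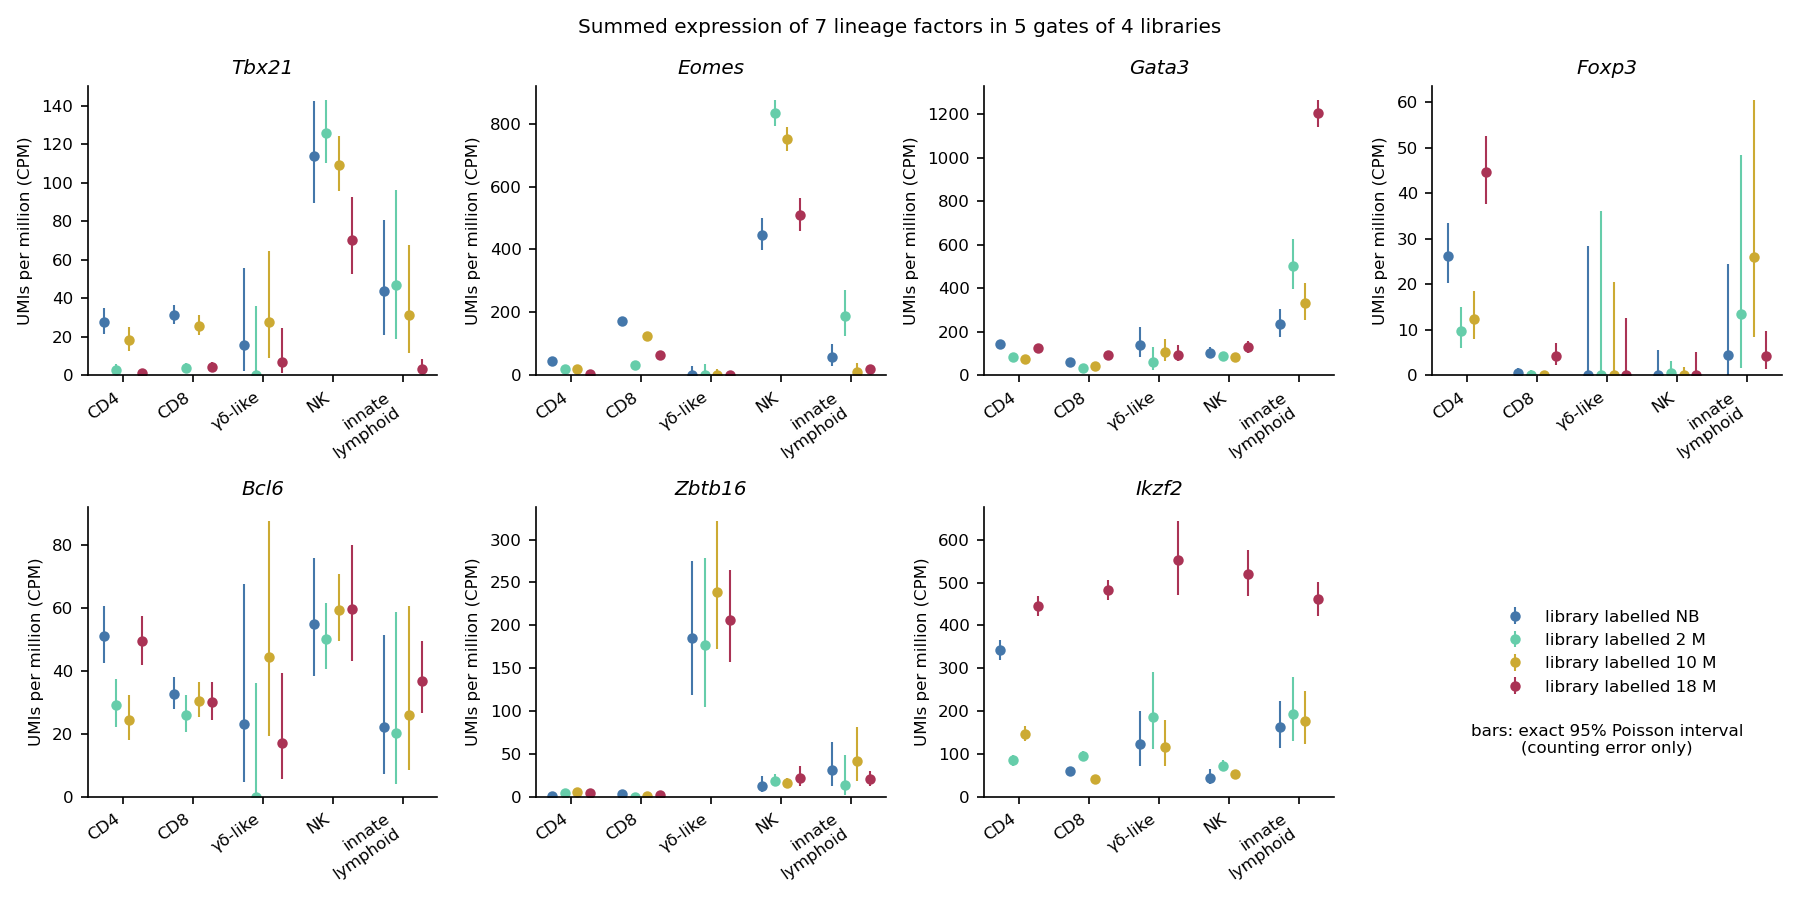
Level of each of the 7 factors (CPM of summed UMIs, linear axis with its own scale in each panel) in the 5 gates, with 1 point per library and exact 95% Poisson intervals as bars. Tbx21 and Eomes peak in NK cells, Gata3 in innate lymphoid cells and Zbtb16 in gamma-delta-like cells in all 4 libraries, while Ikzf2 in library 18 M lies at 444 to 553 CPM in all 5 gates.

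Gata3 was the most abundant of the factors in innate lymphoid cells, at 233 (174 to 305), 501 (394 to 628), 332 (256 to 424) and 1204.5 (1143 to 1268) CPM. A Gata3 UMI was found in 18 of 55, 16 of 32, 15 of 45 and 135 of 184 of these cells, and in 16.4%, 25.0%, 17.8% and 50.6% after thinning each cell to 1000 UMIs (8 cells of library 18 M were too shallow). Library 18 M was the highest and library NB the lowest, and 1 cell of library 2 M held 30 of its 75 UMIs. In the stricter set the levels were 181, 682, 617 and 964 CPM, so NB was again the lowest and 18 M and 2 M lay closer together. Within library 18 M the level was 1206 CPM in cells with a Y-linked and no Xist UMI and 1361 CPM in cells with an Xist and no Y-linked UMI. CD4 T cells held 143 (129 to 159), 82.4 (70.5 to 95.8), 76.1 (64.3 to 89.5) and 124 (112 to 137) CPM, with NB and 18 M above the other two. CD8 T cells were lower than CD4 cells in each library at 58.1, 33.8, 42.7 and 93.6 CPM. NK cells held 102, 87.2, 82.2 and 127 CPM and gamma-delta-like cells 139, 58.8, 105 and 94.4 CPM, and the CD4, NK and gamma-delta-like ranges overlapped. B cells, which served as background at a median depth of 3124 to 3760 UMIs, held 0.780 to 4.95 CPM.

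Innate lymphoid cells exceeded CD4 T cells in Gata3 by a mean log2 ratio of 2.18 ± 1.09 (SD, n = 4), higher in 4 of 4 libraries. The innate lymphoid gate used Il5, Il13, Il1rl1 and Areg, which are genes known to act with GATA3, so gate and factor were not independent. The ratio was smallest in library NB, at 1.62 (1.19 to 2.17), and largest in library 18 M, at 9.73 (8.71 to 10.9). NB also had the largest share of cells with a Cd28 UMI in this gate. In the stricter set its Gata3 level was 181 CPM on 17 UMIs, and a link with Cd28 was not tested.

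Foxp3 (chrX:7573644-7595245, plus strand) was scarce, with 596 UMIs in all kept cells. In CD4 T cells it had 65, 20, 24 and 145 UMIs in 21, 6, 11 and 38 cells, or 26.3 (20.3 to 33.5), 9.70 (5.92 to 15.0), 12.4 (7.96 to 18.5) and 44.7 (37.7 to 52.5) CPM. Libraries NB and 18 M were above 2 M and 10 M with intervals that did not meet. The share of CD4 cells with a UMI was 4.46%, 1.76%, 3.50% and 6.00%, and 1.91%, 1.47%, 0.955% and 1.74% after thinning, which no longer ordered the libraries. CD8 T cells held 2, 0, 0 and 14 UMIs, of which 9 lay in 1 cell of library 18 M. With cells holding a UMI of a thymocyte or cell cycle gene left out, the CD4 levels were 29.3, 10.6, 8.88 and 29.7 CPM. In library 18 M the CD4 cells with a Y-linked and no Xist UMI held 32.7 CPM of Foxp3, and those with an Xist and no Y-linked UMI 75.1 CPM. Gamma-delta-like cells held none, NK cells 1 in all, and innate lymphoid cells 1, 2, 5 and 5, which became 0 in every library in the stricter set. A further 26.5% to 39.4% of the Foxp3 UMIs lay in T cells with neither a Cd4 nor a Cd8b1 UMI, where a missed Cd4 molecule cannot be told from its absence.

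CD4 exceeded CD8 T cells in Foxp3 by a mean log2 ratio of 4.20 ± 1.23 (SD, n = 4), in which libraries 2 M and 10 M entered as lower bounds of at least 10.2-fold and at least 16.6-fold from a floor of 3 UMIs per library. The mean without library NB was 3.61.

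Ikzf2 (chr1:69531214-69687245, minus strand) had the most UMIs of the 7 factors over all kept cells. Of its 15540 UMIs, 9848 lay in library 18 M. Eomes had more UMIs than Ikzf2 in library 2 M (2131 against 1645) and in library 10 M (2996 against 1454). CD4 T cells held 342 (320 to 366), 84.4 (72.3 to 97.9), 147 (130 to 165) and 444 (422 to 468) CPM. CD8 T cells held 60.6 (53.8 to 67.9), 94.6 (84.1 to 106), 41.7 (35.6 to 48.5) and 482.5 (459 to 507) CPM. NK cells held 44.1 (29.5 to 63.3), 72.0 (60.2 to 85.3), 51.9 (42.7 to 62.5) and 519.8 (469 to 575) CPM. Library 18 M was thus the highest in each, by far in CD8 and NK cells and by less in CD4 cells, where NB was also high. Gamma-delta-like cells held 123, 186, 117 and 553 CPM and innate lymphoid cells 163, 194, 176 and 460.4 CPM, again with 18 M above the other libraries, whose intervals overlapped. The ranges of all 5 gates overlapped, so no gate stood out over the libraries.

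The higher level in library 18 M also showed in the number of cells. In CD8 T cells 15.5%, 26.2%, 12.4% and 72.0% of cells had an Ikzf2 UMI, and 4.17%, 9.29%, 3.01% and 29.1% after thinning to 1000 UMIs. In NK cells the shares were 11.4%, 16.1%, 12.9% and 68.8%, and 3.57%, 5.52%, 4.35% and 30.5% after thinning. In B cells they were 0.561%, 0.313%, 0.565% and 2.28%, and 0.130%, 0.118%, 0.0849% and 0.732% after thinning, at 1.66, 1.48, 1.98 and 9.81 CPM. Median depths were 3124 to 3760 UMIs in B cells, 6577.5 to 7431 in CD8 cells and 3765 to 4435 in NK cells, and thinning left out none of the CD8 cells, at most 6 NK cells and 6 to 40 B cells of a library. The CD8 and NK shares of library 18 M were therefore far above its B cells, though the B cells of that library also held more than those of the others.

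The Ikzf2 level of library 18 M was present in both kinds of its cells. Cells with a Y-linked and no Xist UMI held 411 CPM in CD4, 459 in CD8 and 682 in NK cells, and cells with an Xist and no Y-linked UMI held 605, 479 and 362 CPM. Proliferation genes were also highest in library 18 M in most gates. The summed CPM of Mki67, Top2a, Birc5, Ccna2 and Cdk1 was 49.4, 49.0, 33.7 and 249.6 in CD8 and 117, 51.2, 45.8 and 474 in NK cells. The sum was highest in 18 M in CD4 and innate lymphoid cells too. Gamma-delta-like cells differed, at 0, 49.0, 22.2 and 16.9 CPM on 5 UMIs or fewer, and a link with Ikzf2 was not tested. Summed thymocyte genes (Rag1, Rag2, Dntt, Ptcra and Arpp21) held 2.49, 2.53, 1.498 and 15.2 CPM in CD8 cells and 0 UMIs in the NK cells of libraries NB, 2 M and 18 M. With every cell that held a UMI of either list removed, Ikzf2 in library 18 M was 358 CPM in CD4, 459.9 in CD8 and 489 in NK cells, against 92.1, 86.2 and 69.2 CPM in library 2 M.

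**Figure D2:**
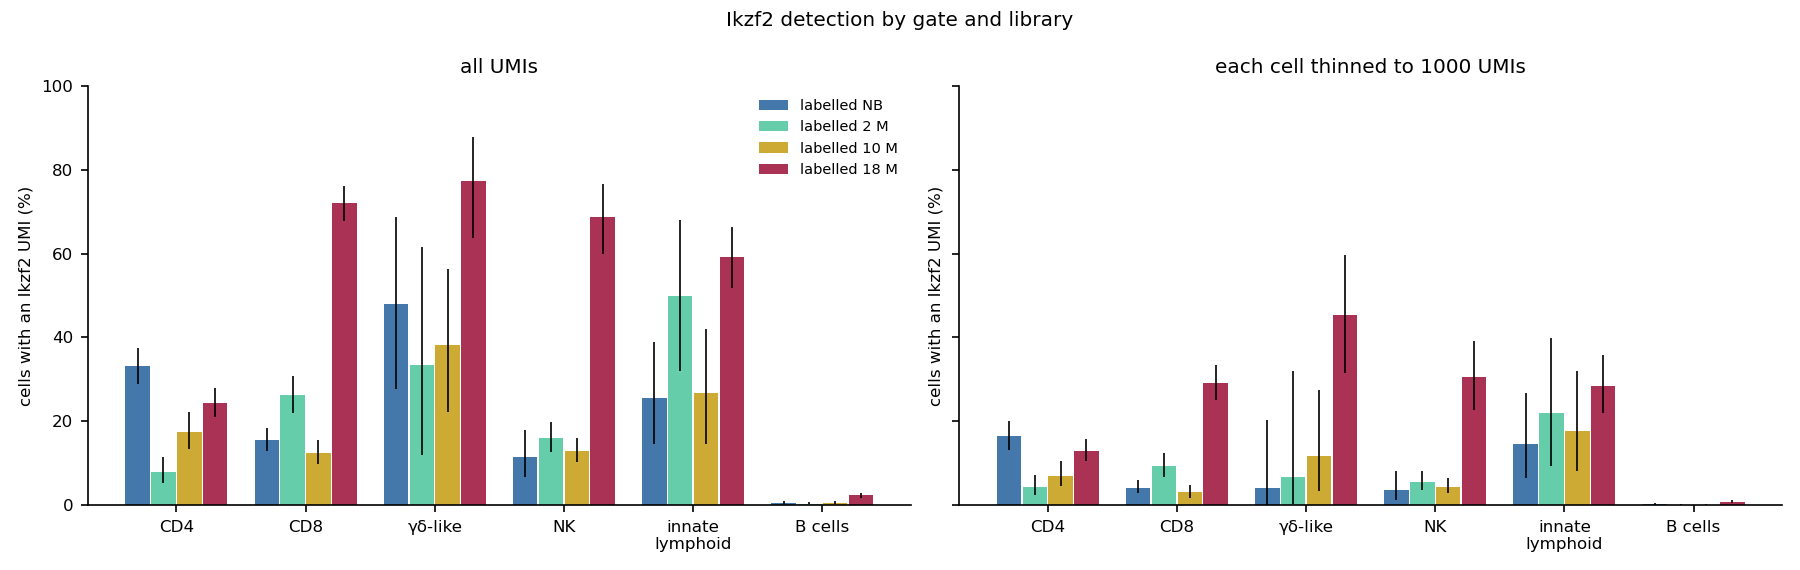
Share of cells with an Ikzf2 UMI (%) by gate and library, with all UMIs on the left and each cell thinned to 1000 UMIs on the right, and exact 95% binomial intervals as lines on the bars. CD8 cells of library 18 M reach 72.0% and 29.1%, and B cells of that library 2.28% and 0.732%.

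Within CD4 T cells, Ikzf2 followed Foxp3. The CD4 cells with a Foxp3 UMI held 2115, 1721, 1804 and 2677 CPM of Ikzf2, and those without one held 240, 48.6, 80.8 and 234 CPM. The ratio was 8.80 (7.60 to 10.2), 35.4 (25.9 to 48.3), 22.3 (17.6 to 28.4) and 11.4 (10.3 to 12.7), with a mean log2 ratio of 4.07 ± 0.91 (SD, n = 4), higher in 4 of 4 libraries. Cells with a Foxp3 UMI thus lay within 2-fold of each other between libraries, and cells without one were several-fold higher in NB and 18 M. Cells without a Foxp3 UMI can include cells whose Foxp3 was missed, and their part in this was not tested. After thinning to 1000 UMIs, 42.9%, 83.3%, 27.3% and 28.9% of the cells with a Foxp3 UMI kept one. An Ikzf2 UMI was found in 18 of 21, 6 of 6, 10 of 11 and 37 of 38 cells with a Foxp3 UMI, against 30.7%, 6.29%, 14.9% and 19.7% of the others. After thinning to 1000 UMIs the same was true of 6 of 9, 3 of 5, 1 of 3 and 11 of 11 cells, against 15.4%, 3.58%, 6.75% and 11.4%, and the intervals overlapped in library 10 M alone. Tbx21 was found in 0 of 21, 0 of 6, 0 of 11 and 1 of 38 cells with a Foxp3 UMI. Of the other CD4 cells 13.6%, 1.50%, 9.57% and 0.504% had a Tbx21 UMI, and the intervals overlapped in each library.

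**Figure D3:**
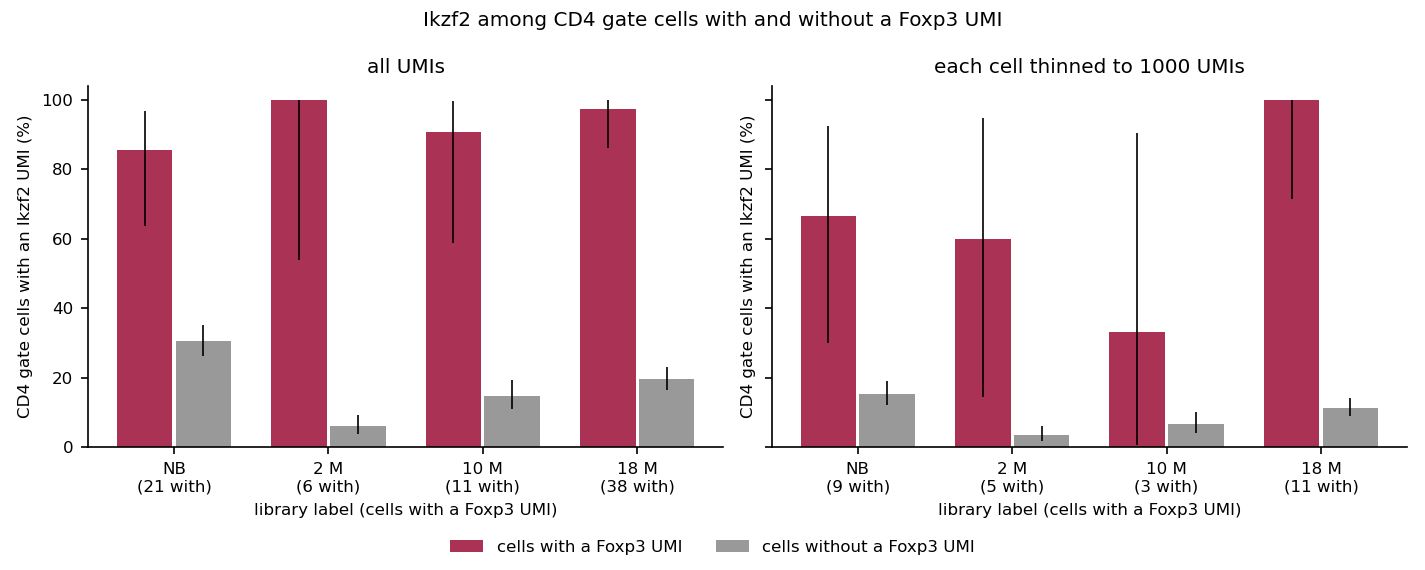
Share of CD4 T cells with an Ikzf2 UMI (%) among cells with and without a Foxp3 UMI, by library, with all UMIs on the left, each cell thinned to 1000 UMIs on the right, and exact 95% binomial intervals as lines. With all UMIs the cells with a Foxp3 UMI lie at 85.7% to 100% and the others at 6.29% to 30.7%, and after thinning the intervals meet only in library 10 M.

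Bcl6 (chr16:23965052-23988852, minus strand) and Zbtb16 (chr9:48654297-48836222, minus strand) belong to the same family of BTB zinc finger repressors. Their levels differed in spread among the 5 gates, where Bcl6 was broad. Both had most of their UMIs elsewhere, since the 5 gates held 13.2% to 25.1% of the Bcl6 UMIs and 14.4% to 34.5% of the Zbtb16 UMIs. NK cells held 54.7, 50.1, 59.3 and 59.4 CPM, CD4 T cells 50.9 (42.4 to 60.6), 29.1 (22.2 to 37.5), 24.3 (17.9 to 32.4) and 49.3 (41.9 to 57.5), and CD8 T cells 32.6, 25.9, 30.5 and 30.0. NK and CD8 levels thus hardly moved between libraries, and CD4 levels split into NB and 18 M above 2 M and 10 M. The CD4 over NK mean log2 ratio was -0.61 ± 0.54 (SD, n = 4), lower in CD4 in 4 of 4 libraries, though the intervals of NB and 18 M included no difference. B cells held 25.3 to 50.7 CPM, at the level of the T cells, and innate lymphoid and gamma-delta-like cells 44 UMIs or fewer in any library.

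Zbtb16 was narrow, at 185 (118 to 275), 176 (105 to 279), 239 (173 to 321) and 206 (157 to 264) CPM in gamma-delta-like cells, on 24, 18, 43 and 61 UMIs. These 4 values overlapped, and 68.0%, 60.0%, 70.6% and 66.0% of the cells had a UMI. CD4 T cells held 1.21, 3.88, 5.70 and 3.70 CPM, CD8 T cells at most 2.49, NK cells 12.2 to 22.1 and innate lymphoid cells 13.4 to 41.5 CPM. Gamma-delta-like over CD4 cells gave a mean log2 ratio of 5.99 ± 0.86 (SD, n = 4), higher in 4 of 4 libraries. The gamma-delta-like gate used Blk, which is listed among genes known to act with PLZF, so gate and factor were not independent. NK and innate lymphoid ranges overlapped, and both lay above the CD4 and CD8 cells in the whole gates. The innate lymphoid values rested on 7, 2, 8 and 24 UMIs. The stricter innate lymphoid set held 1, 0, 2 and 3 UMIs, or 10.6, 0, 22.8 and 6.12 CPM, so library 2 M was not above its CD4 cells there. The T cells with no Cd4 or Cd8b1 UMI that missed the gamma-delta-like gate held 37.6, 11.6, 48.4 and 22.1 CPM and 15.9% to 33.4% of the Zbtb16 UMIs. The gamma-delta-like gate itself held 6.38% to 17.4% of the Zbtb16 UMIs.

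The libraries were then compared within each gate, with library 2 M as the young adult reference and a change called where the CPM ratio reached 2 and both libraries together had at least 20 UMIs. In CD4 T cells 3 of 6 factors with enough UMIs were past 2-fold in library 18 M, where 11.7% of all genes were. Foxp3 was higher by 4.60-fold (2.87 to 7.76), Ikzf2 higher by 5.27-fold (4.5 to 6.2) and Eomes lower at a ratio of 0.103 (0.0355 to 0.246). In library NB 4 of 6 factors were past 2-fold, all higher, against 11.6% of all genes, with Tbx21 at 11.3-fold (4.62 to 36.0), Ikzf2 at 4.05-fold, Foxp3 at 2.71-fold and Eomes at 2.48-fold. In library 10 M only Tbx21 of 6 was, at 7.47-fold (2.92 to 24.4), against 5.79%. Gata3, Bcl6 and Zbtb16 were within 2-fold of library 2 M in CD4 cells wherever they had enough UMIs.

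In CD8 T cells 3 of 5 factors were past 2-fold in library 18 M, all higher, against 10.2% of all genes. Ikzf2 was at 5.10-fold (4.51 to 5.79), Gata3 at 2.77-fold (2.21 to 3.48) and Eomes at 2.00-fold (1.57 to 2.56), which is at the threshold. In library NB 2 of 5 were, Tbx21 at 8.94-fold (4.86 to 18.3) and Eomes at 5.35-fold (4.35 to 6.65), against 8.64%. In library 10 M 3 of 5 were, with Tbx21 at 7.39-fold and Eomes at 3.85-fold higher and Ikzf2 lower at a ratio of 0.441 (0.363 to 0.535), against 5.65%. Tbx21 was thus low in libraries 2 M and 18 M in both T cell gates, while Eomes was lowest in 2 M in CD8 cells and in 18 M in CD4 cells. Every ratio above shares the reference library 2 M.

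In NK cells 1 of 6 factors was past 2-fold in library 18 M, where 12.8% of all genes were, and it was Ikzf2 at 7.22-fold (5.91 to 8.88). Tbx21 and Eomes there were at ratios of 0.560 (0.405 to 0.761) and 0.612 (0.544 to 0.686), with intervals below 1. Libraries NB and 10 M had 0 of 6 past 2-fold, against 8.16% and 3.19%. In gamma-delta-like cells 1 of 3 factors was past 2-fold in library 18 M, Ikzf2 at 2.97-fold (1.84 to 5.06), against 14.8%. In innate lymphoid cells 3 of 5 were, Gata3 at 2.40-fold (1.90 to 3.07) and Ikzf2 at 2.38-fold (1.64 to 3.58) higher and Eomes lower at 0.103 (0.0564 to 0.185), against a high background of 29.3%. In the stricter innate lymphoid set the log2 ratio of Gata3 was 0.50, against 1.26 in the whole gate. Ikzf2 in that set stood at 95.8, 201, 114 and 284 CPM, with 18 against 139 UMIs in 2 M and 18 M, so neither Gata3 nor Ikzf2 was past 2-fold there. Eomes stood at 128, 291, 11.4 and 14.3 CPM. In the whole gate Eomes was highest in 2 M, and NB and 10 M were at ratios of 0.305 (0.145 to 0.609) and 0.0554 (0.0064 to 0.220) to it, while Gata3 in NB was at 0.465 (0.321 to 0.670).

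**Figure D4:**
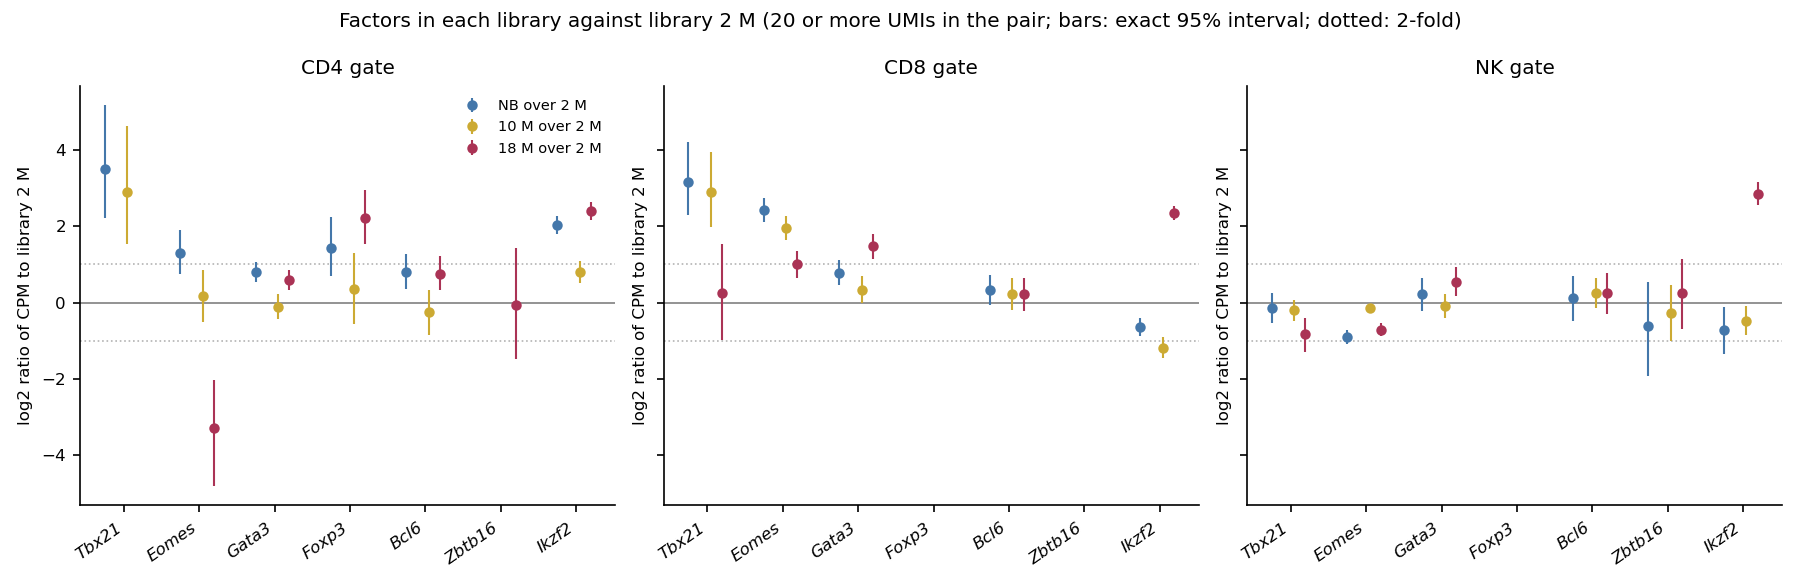
Ratio of each library to library 2 M (log2 of CPM) for the factors with at least 20 UMIs in the pair, in CD4, CD8 and NK cells, with exact 95% intervals as bars and 2-fold as dotted lines. Ikzf2 lies above 2-fold in library 18 M in all 3 gates, and Tbx21 in libraries NB and 10 M in CD4 and CD8 T cells.

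Genes known to act with each factor were read from lists in the gate of that factor, for library 18 M against 2 M. Of 9 T-box programme genes in NK cells with enough UMIs, 6 were lower past 2-fold and none higher, with a median log2 ratio of -1.70 against -0.08 for all genes, of which 8.65% were lower and 4.20% higher. The chemokine Ccl5 went from 16666 CPM in 2 M to 5112 in 18 M and the protease Gzmb from 497 to 120 CPM, while Il2rb, the shared receptor chain of IL-2 and IL-15, went from 712 to 586. The NK gate of library 18 M also had the smallest share of cells with Nkg7 and the largest with Cd3g. The part of this make-up in these values and in the Tbx21 and Eomes ratios was not tested. In CD8 cells, where 7.58% of all genes were higher and 2.59% lower, of 8 genes the cytokine Ifng was higher, from 4.74 to 22.0 CPM, and Gzmb and the death ligand Fasl were lower. The 3 most abundant of these genes in CD8 cells, Ccl5 (896 to 567 CPM), Il2rb (126 to 166 CPM) and Zeb2 (16.8 to 17.8 CPM), were within 2-fold.

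Of 5 GATA3 programme genes in CD4 T cells all 5 were higher past 2-fold in 18 M, with a median log2 ratio of 2.40 against 0.19 for all genes, of which 9.04% were higher and 2.63% lower. The growth factor Areg was at 7.88-fold (4.81 to 13.8), the IL-33 receptor Il1rl1 at 4.00-fold (2.57 to 6.52) and the chemokine receptor Ccr4 at 2.33-fold, and Il5 and Il13 had no UMI in library 2 M. Over the 4 libraries Areg stood at 108, 8.24, 36.8 and 65.0 CPM, Il1rl1 at 49.3, 11.2, 13.5 and 44.7, and Ccr4 at 28.3, 4.36, 12.4 and 10.2. Library 2 M was thus the low one for Areg and Ccr4, and both were higher in NB than in 18 M. In innate lymphoid cells 4 of the 9 were used in the gate and 3 others had enough UMIs, too few to describe as a group.

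Of 10 regulatory T programme genes in CD4 cells 4 were higher and none lower, with a median log2 ratio of 0.89 against 0.19 for all genes, of which 9.04% were higher. Il2ra, the high-affinity IL-2 receptor chain, was at 6.11-fold (3.65 to 11.0), the checkpoint receptor Ctla4 at 2.03-fold (1.78 to 2.32), and Il10 and Lrrc32 were the others. Ctla4 stood at 625, 146, 313 and 296 CPM, so library 2 M was the low one and 18 M lay below NB and 10 M. Tnfrsf4 and Tnfrsf18, costimulatory receptors of regulatory T cells, were at 1.74-fold and at a ratio of 0.845. Within CD4 cells with a Foxp3 UMI, the median log2 ratio of 9 of these genes was -0.21 against 0.06 for all genes. That comparison set 38 cells of 18 M against 6 cells of 2 M, too few to read single genes. In CD4 cells without a Foxp3 UMI the median log2 ratio of 9 of these genes was 0.68, against 0.18 for all genes. Of 6 follicular helper genes in CD4 cells 2 were higher, the checkpoint receptor Pdcd1 at 2.25-fold and Tox2 at 2.10-fold, while Icos, Tcf7 and Sh2d1a were within 2-fold at 1.37, 1.82 and 1.27. Their median log2 ratio was 0.66, against the same 0.19 and 9.04% for all genes, and Pdcd1 stood at 49.3, 6.30, 18.6 and 14.2 CPM, lowest in 2 M. Of 5 PLZF programme genes in gamma-delta-like cells Tmem176a and Tmem176b were lower, at ratios of 0.438 and 0.433, and the chemokine receptor Cxcr6 and the IL-18 receptor chain Il18r1 were at 1.03 and 1.36, and 6.86% of all genes were lower there.

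Other lineage factors were mostly within 2-fold. In CD4 cells Sox4 and Zeb2 were higher and Id3 lower of 23, in CD8 cells Irf4, Sox4 and Nfil3 higher and Klf2, a factor of resting T cells, lower of 22, and in NK cells Tcf7 higher and Klf2 and Lef1 lower of 20. Of all genes in these 3 gates 11.7%, 10.2% and 12.8% were past 2-fold. The abundant factor Satb1 was at 1.61-fold in CD4, 1.57-fold in CD8 and 1.05-fold in NK cells, Lef1 at ratios of 0.755 and 0.530 in CD4 and CD8 cells, Klf2 at 0.550 in CD4 cells, and Id2 at 0.517 in NK cells. Klf2 in NK cells went from 747 to 129 CPM, a ratio of 0.172 (0.138 to 0.212).

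Genes that followed each factor most closely were ranked by Pearson's r of log2(CPM + 10) over the 20 sums of 5 gates and 4 libraries, among 9597 genes. These points share libraries and gates, so r is a description. Tbx21 was followed by Serpinb9 (r = 0.947), Eomes by Samd3 (0.968), Nkg7 (0.949) and Klrd1 (0.926), and Zbtb16 by Clcn3 (0.966). Gata3 was followed by Zfand5 (0.917), Bcl6 by Fam49b (0.951), and Foxp3 by Lrig1 (0.787), Il10 (0.775) and Lrrc32 (0.774). Ikzf2 was followed by Retnla (0.802), Xist (0.798) and Scgb3a2 (0.792), of which the first and last are products of myeloid and airway cells and the second marked library 18 M.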

How the data were processed

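Whole lungs of 4 ages were profiled with the 10x 3' kit, 1 library an age. The authors deposited counts of UMIs per gene and cell as sparse matrices, and the submitters' processing notes name Cell Ranger 3.0.2, Seurat 2.0 and the mm10 build. The members and lists were chosen with earlier results of these data known.

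A cell was kept where it had over 200 and under 5000 genes, no more than 25000 UMIs and a mitochondrial share below 8%. T cells had at least 2 UMIs of Cd3d, Cd3e or Cd3g and were CD4 with a Cd4 UMI and no Cd8b1, or CD8 the other way. NK cells had 2 of 7 NK genes and innate lymphoid cells 3 of 10 genes with Il1rl1, Rora or Arg1, both without Cd3d or Cd3e. Trac and Trdc were not in the gene table, so gamma-delta-like cells were T cells without Cd4 or Cd8b1 and with 2 of Cd163l1, 5830411N06Rik, Sox13 and Blk, chosen after seeing the gene table. At most 1 UMI of other cell types' markers was allowed. No doublet caller was run, and the limits on cells and these markers stood in for it.

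UMIs were summed per gate and library, and intervals were exact 95% Poisson, conditional binomial (ratios) or Clopper-Pearson (shares). Shares were thinned to 1000 UMIs a cell, leaving out shallower cells. Named genes were the 7 factors, the 3 genes nearest each, and of each list the counts past 2-fold with the 3 most abundant genes; other genes past 2-fold were named after their values were seen. Scripts were tested on simulated data and ran under Python 3.11.15 with scipy 1.17.1, numpy 2.4.6, matplotlib 3.10.9 and pandas 2.3.3. Gene positions are from GENCODE on GRCm38 (mm10) and promoters from RefSeq.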

Additional observations from a re-analysis of the deposited data

Results flagged for a closer look

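Eomes moved in opposite directions between gates when library 18 M was set against 2 M. In CD8 T cells it was 2.00-fold higher, on 215 against 101 UMIs, and in CD4 T cells it was lower at a ratio of 0.103, on 6 against 37 UMIs. The log2 ratios differed by 4.28 between CD8 and CD4 cells. In innate lymphoid cells Eomes was also lower at a ratio of 0.103, on 23 against 28 UMIs, and the log2 ratios differed by 4.29 between CD8 and innate lymphoid cells. Neither difference was tested, since each age has 1 library. In library 2 M 17 of the 37 CD4 UMIs and 11 of the 28 innate lymphoid UMIs lay in 1 cell each. With cells holding a UMI of a thymocyte or cell cycle gene left out, CD4 cells held 7.94 CPM in 2 M and 0.782 CPM in 18 M. These values rest on 15 and 2 UMIs, fewer than the 20 asked of a pair of libraries.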

How the results depend on the processing

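All 7 contrasts between gates kept their direction under every alternative run, those that left out a library included. Leaving out each library in turn gave mean log2 ratios of 2.68 to 3.78 for Tbx21, 2.33 to 3.44 for Eomes, 1.81 to 2.67 for Gata3, 3.61 to 4.49 for Foxp3, -0.78 to -0.39 for Bcl6, 5.56 to 6.19 for Zbtb16 and 3.71 to 4.38 for Ikzf2. Of the 18 M over 2 M log2 ratios, 95 repeats stayed within counting error of the value given and 10 did not, and the cause was not tested. Gata3 in innate lymphoid cells (1.26) was 0.26 with 1 more marker asked of each gate, 0.81 with no exclusion markers, 0.50 without cells with Cd3g, Cd5 or Cd28, and 1.95 without the cell with most UMIs, the last 2 chosen after seeing the data. Zbtb16 in gamma-delta-like cells (0.22) was -0.93 with stricter gates. Eomes in NK cells (-0.71) was -0.91 as a mean over cells, -1.01 without thymocyte and cell cycle cells, and -0.53 in the 18 M cells with a Y-linked and no Xist UMI. Foxp3 in CD4 cells (2.20) was 1.49 without thymocyte and cell cycle cells, and Ikzf2 in CD4 cells with a Foxp3 UMI (0.64) was 0.22 with at most 10000 UMIs a cell. Of the levels of single factors, 1459 repeats stayed within counting error and 221 did not, of which 71 came with totals without abundant genes and 43 with stricter gates. Of the shares, repeated with other thinning or none, 307 stayed and 256 did not. Gamma-delta-like and innate lymphoid values rest on few cells. No paired analysis was possible because the labels carry no replicate numbers that pair libraries of different ages, and the contrasts between gates were taken within each library.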

Other observations

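Cells outside the 5 gates held much of some factors. Bcl6 was highest in neutrophils among the cell types read, at 81.9 (69.4 to 96.0), 78.2 (59.1 to 102), 66.5 (52.7 to 82.7) and 157 (136 to 181) CPM, with library 18 M above the other 3, and alveolar macrophages held 28.4 to 38.9 CPM. T cells without a Cd4 or Cd8b1 UMI that missed the gamma-delta-like gate held 228, 219, 131 and 749 CPM of Ikzf2 and 88.4, 45.0, 66.6 and 221 CPM of Gata3, again highest in 18 M. T cells with both Cd4 and Cd8b1 UMIs held 340, 204, 428 and 393 CPM of Ikzf2, and the thymocyte genes summed to 5.08, 0, 47.5 and 123 CPM there.

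Cd163l1, a gene of IL-17-type gamma-delta T cells, had a UMI in 9.83% of the CD8 T cells of library 18 M and in 0.447%, 0.476% and 0.532% of those of NB, 2 M and 10 M. In the innate lymphoid gate the cytokine gene Csf2 stood at 57.1, 73.5, 77.8 and 1154 CPM.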
